A study of Mus musculus with 8 samples.

Results

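Ser5P CUT&Tag in MEL cells, a mouse erythroleukaemia line that grows as arrested erythroid precursors, was compared between a control line carrying dCAS and a line with knockdown of Myrlin (KD). CUT&Tag uses an antibody to bring a transposase to the chromatin around its target, which the enzyme cuts and tags, here an antibody against the Rpb1 subunit of RNA polymerase II phosphorylated on serine 5 of its C-terminal repeats (Ser5P). Myrlin is, per the series title, a transcript of the -81 enhancer of Myb that is linked there to recruitment of the MLL1 complex. There were 2 libraries of each line, each from the same number of cells, and the labels give no clone number, time or treatment beyond the knockdown. The labels call them biological replicates without saying how the cultures were separated, so the spread between them may be technical.

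Ser5P is placed on polymerase by the kinase Cdk7 of the general factor TFIIH as transcription starts, and it is densest where polymerase pauses just inside genes. It falls along the gene as Ser2P, placed by Cdk9 and related kinases, takes over. Ser5P polymerase is also found at active enhancers, which are transcribed themselves. Myb encodes a transcription factor that keeps erythroid precursors dividing.

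The Ser5P regions were obtained by merging overlapping peaks of the 4 deposited lists on the autosomes, X and Y, which left 37531 regions. The same merging over all 8 libraries of the series, Ser2P included, gave 56005. A library had a region where any of its peaks overlapped it. Regions found in both controls and in no KD library are called control-only, those found the other way round KD-only, and those in all 4 stable. Regions lying up to 1000 bp from the outer 5′ end of protein-coding genes were taken as promoter regions, other regions inside such genes as gene body regions, and the rest as distal.

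Peak numbers were 23964 and 25441 for the controls and 21574 and 24509 for KD, and 2439 (KD 1) to 4085 (KD 2) regions were seen in a single library. Read totals were not used here. The background pileup recovered from the peaks, a relative depth, was 0.566 and 0.642 in controls, against 0.649 and 0.837 under knockdown. Control 1 was thus the shallowest library and KD 2 the deepest, while control 2 and KD 1 were too close to be ordered. Of the erythroid markers, the promoters of Klf1, Tal1, Nfe2, Epor (the erythropoietin receptor) and Tfrc (the transferrin receptor) carried Ser5P in all 4 libraries. Gata1 did so at the starts of the RefSeq promoter table but not at its outer 5′ end. Gfi1b lacked a peak in KD 2, and Hba-a1 had a peak in control 2 and KD 1 only. The promoters of Alas2 and Hbb-bt carried none, though the Alas2 gene interval was covered in all 4 libraries. Stable promoters were found for 1 of 20 myeloid, 0 of 20 lymphoid and 0 of 20 non-haematopoietic marker genes, and for 4 of 20 megakaryocyte and mast cell markers.

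The promoters below are those that the results turn on and for which a sequence could be matched at the outer 5′ end. Myb is the gene next to the Myrlin enhancer, Cyp2r1 and Rassf4 had Ser5P in both controls only, and Med9 and Zdhhc17 in both KD libraries only. Each is the 120 bases upstream of the gene's outer 5′ end from RefSeq (GRCm38.p6), written 5′ to 3′ on the strand of the gene.
Myb, chr10:21160985-21161104, minus strand: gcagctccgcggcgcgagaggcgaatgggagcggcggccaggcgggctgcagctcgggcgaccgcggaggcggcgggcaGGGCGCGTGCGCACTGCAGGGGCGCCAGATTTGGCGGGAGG
Cyp2r1, chr7:114563049-114563168, minus strand: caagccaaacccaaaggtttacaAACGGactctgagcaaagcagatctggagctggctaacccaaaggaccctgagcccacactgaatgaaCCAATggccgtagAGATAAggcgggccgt
Rassf4, chr6:116673837-116673956, minus strand: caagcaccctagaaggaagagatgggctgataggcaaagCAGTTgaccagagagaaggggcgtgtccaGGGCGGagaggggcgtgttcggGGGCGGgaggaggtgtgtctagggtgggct
Med9, chr11:59948094-59948213, plus strand: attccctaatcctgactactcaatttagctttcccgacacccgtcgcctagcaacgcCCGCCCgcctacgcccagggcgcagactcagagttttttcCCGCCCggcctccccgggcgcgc
Zdhhc17, chr10:111010067-111010186, minus strand: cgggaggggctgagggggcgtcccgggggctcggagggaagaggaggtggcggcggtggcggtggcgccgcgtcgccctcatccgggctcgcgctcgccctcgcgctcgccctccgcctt

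At Myb the capitals mark the 41 bases that lie inside the Ser5P region of the KD libraries. Elsewhere they mark matches to the motifs searched on both strands. These were the TATA box TATAAA, the CCAAT box, the GC box GGGCGG, the ETS core CCGGAA, the GATA motifs AGATAA and also TGATAA, the Myb core AACNG, the E-box CACGTG and the cyclic AMP element core TGACGT. In the 300 base promoters of all 15752 genes with a sequence, AACNG was present in 79.3%, GGGCGG in 46.7%, CCAAT in 39.4% and AGATAA in 9.92%. Cyp2r1 held 1 Myb core, 1 CCAAT box and 1 GATA motif, Rassf4 held 2 GC boxes and 1 Myb core, Med9 held 2 GC boxes, and Zdhhc17 and Myb held none of the motifs. GC content of the printed stretch was 53.3% at Cyp2r1, 62.5% at Rassf4, 64.2% at Med9, 79.2% at Myb and 80.0% at Zdhhc17. A comparison of motif shares between the groups of promoters is void, because only 55.2% of control-only and 72.7% of KD-only genes had a sequence.

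Promoter regions were the most reproducible class and showed no balance towards either line, whereas gene body and distal regions were more often control-only than KD-only. Of 9492 promoter regions 7290 (76.8%) were stable, 127 (1.34%, 95% Wilson interval 1.13 to 1.59%) were control-only and 113 (1.19%, 0.991 to 1.43%) were KD-only. Of 17743 gene body regions 4260 (24.0%) were stable, 898 (5.06%) control-only and 420 (2.37%) KD-only. Of 10296 distal regions 2821 (27.4%) were stable, 512 (4.97%) control-only and 289 (2.81%) KD-only. Over all classes this came to 4.10% control-only and 2.19% KD-only. The intervals cover counting error only.

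**Figure D1:**
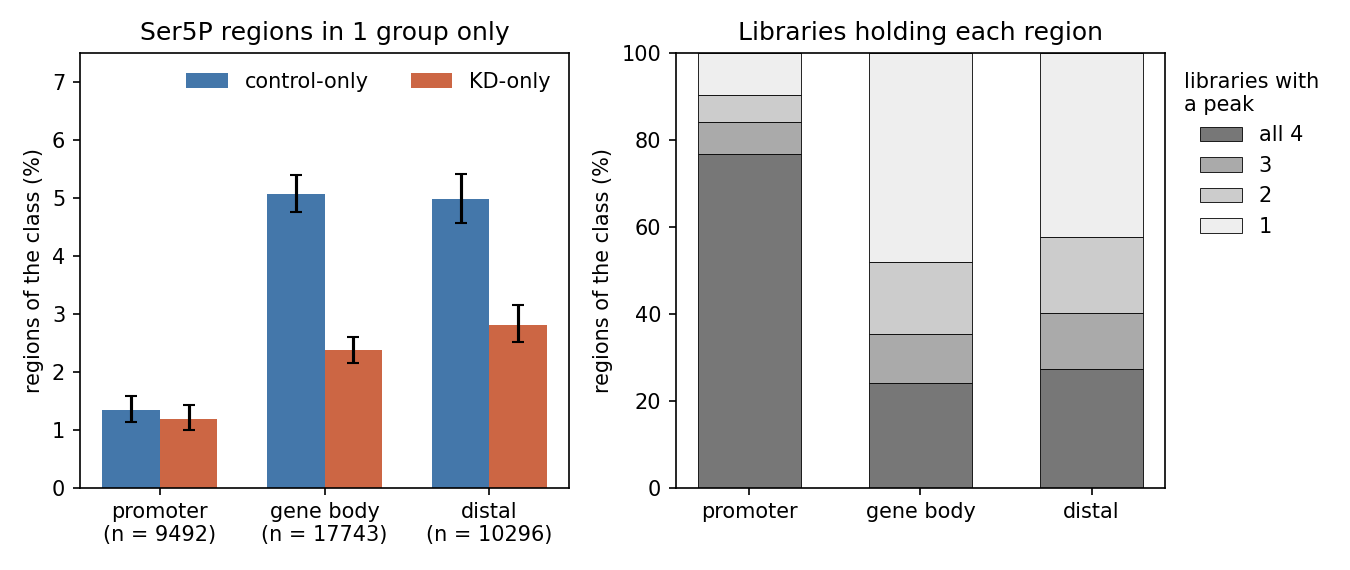
Left, share of Ser5P promoter, gene body and distal regions (n under each class) that were control-only or KD-only, with 95% Wilson intervals as bars. Right, share of each class by the number of libraries holding a peak. The control-only bar stands above the KD-only bar in gene bodies (5.06 against 2.37%) and at distal sites (4.97 against 2.81%), while 76.8% of promoter regions were in all 4 libraries.

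There were 1.12 control-only regions per KD-only region at promoters, 2.14 in gene bodies and 1.77 at distal sites. With lists of equal length these ratios were 0.679, 1.41 and 1.27, and after thinning of the pileups to the shallowest library 1.59, 3.01 and 2.56. Gene bodies thus kept the highest ratio and a ratio above 1 under both, while at promoters the direction turned with equal list length and not after thinning. The 2 controls disagreed on 31.7% of all regions and the 2 KD libraries on 31.6%, so single-library differences were several times more frequent than control-only or KD-only calls. When KD 1 was left out, the ratios were 0.614, 0.467 and 0.509, and without KD 2 they were 1.14, 0.901 and 0.941; in both cases 1 KD library alone then sufficed for a KD-only call. Without control 1 they were 1.27, 4.64 and 3.56, and without control 2 they were 1.03, 3.44 and 2.50.

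At the level of whole libraries, gene bodies took 41.7 and 42.5% of peak summits in controls, against 39.0 and 41.5% under knockdown. The groups did not overlap, with a difference of -1.84 percentage points, but the two-sided exact permutation test gave p = 0.3333 (0.750 adjusted over 9 values), the smallest p it can reach with 2 libraries against 2. The promoter share of summits, 33.2 and 31.7% against 36.2 and 32.9%, overlapped between groups. Distal sites took 25.1 and 25.7% against 24.8 and 25.7%. The number of promoters with Ser5P was 8974 ± 72.1 in the controls and 8984 ± 164 in the KD libraries (SD, n = 2 each), which differed by less than the replicates did.

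In limma on the covered share of 23715 regions present in at least 2 libraries, no region passed a Benjamini-Hochberg adjusted p of 0.05, with 1284 regions higher and 1717 lower in KD at an unadjusted p under 0.05 (5.41 and 7.24% of those tested). For 9233 promoters again 0 passed, with 681 higher and 210 lower before adjustment (7.38 and 2.27%). Once the mean over stable features was set equal in all libraries, these became 966 and 1933 regions, and 476 and 340 promoters. On simulated data with 200 changed features, the test found 0% of regions and 65.0% of promoters whose covered share differed by 0.5, so for regions it could not have called a difference of that size. Without control 1 or without control 2, limma called 1537 regions lower in KD, a number equal to that of the control-only regions, and 3 higher without control 1. There the lone control is assumed to vary like the KD libraries, which are both at 0 in such regions.

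Control-only and KD-only regions were narrower than stable ones, and their peaks ranked lower by fold. Their median merged width was 469 and 503 bp, against 878 bp for stable regions. Stable regions merge peaks of all libraries and called regions those of a single line, so merging alone widens the stable ones more. Within single libraries, stable regions had a median 653 and 680 bp covered in controls, against 674 and 722 bp under knockdown. These medians were still above the merged widths of the called regions. By the authors' fold over background, control-only peaks sat at the median at the 34.1 and 36.2 percentile of their own lists, and KD-only peaks at the 22.9 and 27.3 percentile. Stable regions sat between the 65.0 and 69.0 percentile. The calls rest on peak presence, and weak peaks are the ones more easily missing from a list. The lower ranks of called peaks therefore follow in part from the definition of the calls, and no conclusion is drawn from them. Both folds were above the library median in 269 control-only regions (17.5%) and in 72 KD-only regions (8.76%). Control-only regions lay a median 9.61 kb from the nearest peak of the libraries that lacked them, and 11.9% lay within 1 kb of one. For KD-only regions the distance was 6.56 kb and 15.8% lay within 1 kb.

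Within genes, stable regions lay closer to the 5′ end than the called ones, and KD-only regions lay about as far from it as all gene body regions. Control-only gene body regions lay a median 28.3 kb from the 5′ end of the host gene, KD-only ones 25.5 kb and stable ones 19.5 kb, beside 25.7 kb for all gene body regions. Within 5 kb of the 5′ end lay 8.06% of the control-only, 10.4% of the KD-only and 17.6% of the stable regions, against 10.5% of all. The control-only regions fell in 796 host genes and the KD-only ones in 392. The host gene's own promoter was stable for 54.0% of control-only and 57.5% of KD-only regions, against 55.1% of all gene body regions, and 9 control-only regions had a host promoter of the same call. At distal sites, 15.2% of control-only regions lay over 100 kb from any protein-coding 5′ end, against 6.92% of KD-only, 7.48% of stable and 8.51% of all distal regions.

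In 68 of the 796 host genes 2 or more gene body regions were control-only, and in 20 of the 392 host genes 2 or more were KD-only. For stable gene body regions this held in 782 of 2979 host genes. The control-only gene body regions were also the more numerous, 898 against 420. The genes with the most were Lrrfip2 (6 of 20 regions control-only), Plekha6 (6 of 16) and Rcbtb1 (5 of 10 within the gene), none of which held a KD-only region. Lrrfip2 encodes a protein of Toll-like receptor and Wnt signalling, Plekha6 a pleckstrin homology domain protein of cell junctions, and Rcbtb1 an RCC1 and BTB domain protein. In the KD-only direction Ankrd11, a chromatin regulator, and Frmd4a, a scaffold of cell polarity, had 3 each, and Ankrd11 had 3 control-only regions as well.

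These genes were looked at as whole intervals after their regions had been seen, by summing the bp of the gene under Ser5P peaks. Lrrfip2 (chromosome 9, 111117546 to 111225668, plus strand) had 4801 and 6708 bp covered in the controls, while KD 1 had none and KD 2 had 710 bp. The controls had peaks in 13 and 14 regions of the gene, against 0 and 1 in the KD libraries, and the groups did not overlap. Most of the 108 kb gene was without peaks in the controls as well. Counting only peaks with a −log10 q of at least 5, the controls had 3504 and 3740 bp and the KD libraries the same 0 and 710 bp. Its control-only regions lay 5.07, 19.5, 20.7, 26.1, 33.3 and 38.9 kb from the 5′ end. Their folds in the controls were low, from 2.19 to 4.49, against library medians of 5.58 and 5.42.

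Rcbtb1 (chromosome 14, 59201018 to 59237267, plus strand) had 3967 and 3690 bp in controls, against 261 and 385 bp under knockdown, a mean 11.9-fold lower. Its promoter was stable, with 1111 and 641 bp against 518 and 642 bp. The KD libraries held the promoter peak alone, while the controls shared 5 regions between 20.2 and 31.2 kb and another just past the 3′ end, 37.4 kb from the start. The folds of these shared peaks were low, from 2.14 to 3.70, against library medians of 5.58 and 5.42. Phf11b, a PHD finger gene on the same chromosome (59320964 to 59341388, minus strand), held 1 Ser5P region, 1553 and 1546 bp wide in the controls and absent from both KD libraries. Ser2P at Phf11b covered 1091 and 1000 bp in the controls and 0 bp in both KD libraries. Setdb2, a histone methyltransferase gene further along, kept a stable promoter, with 973 and 809 bp against 776 and 831 bp.

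Plekha6 (chromosome 1, 133162032 to 133303435, plus strand) had 6430 and 6982 bp in controls, against 1930 and 1996 bp under knockdown. Its control-only regions lay between 6.23 and 57.1 kb from the 5′ end, whereas 2 regions at 82.9 and 83.9 kb were stable. Folds of the control-only regions were low here too, from 2.01 to 3.49 in the controls. Ser2P over Plekha6 covered 5307 and 3196 bp in controls, against 3597 and 2787 bp under knockdown, so the groups overlapped for that mark. For Lrrfip2 Ser2P was 4784 and 1106 bp against 1624 and 1546 bp, which also overlapped, and for Rcbtb1 2370 and 1270 bp against 670 and 531 bp, which did not.

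**Figure D2:**
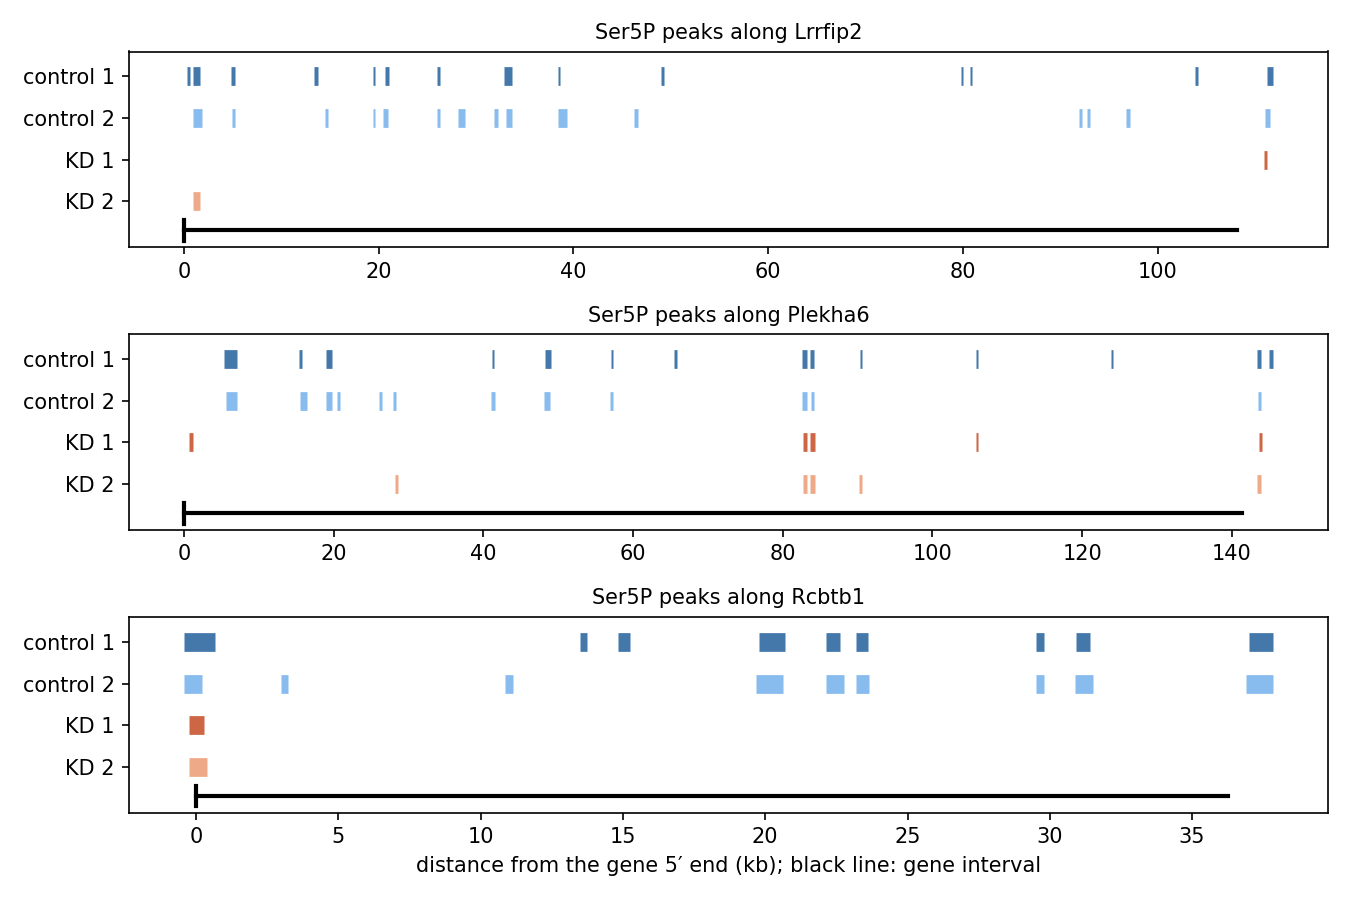
Ser5P peaks of each library along Lrrfip2, Plekha6 and Rcbtb1, by distance from the gene 5′ end in kb, with the gene interval as a black line and the 5′ end as a tick. In Rcbtb1 the KD libraries hold the promoter peak alone, and in Plekha6 the peaks at 82.9 and 83.9 kb are in all 4 libraries while the 6 control-only regions lie from 6.23 to 57.1 kb, a stretch where KD 2 has 1 peak, at 28.3 kb, and KD 1 has none.

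Few genes had so large a difference over the whole interval. Among 475 genes with at least 2000 bp under Ser5P peaks in both controls, 5 (1.05%) had both KD libraries at least 2-fold lower than both controls: Plekha6, Lrrfip2, Rcbtb1, Spats2 and Pip4p2. Among 432 genes with as much in both KD libraries, 0 were higher by the same rule. With a minimum of 1000 bp and 4-fold, 8 of 2248 genes (0.356%) were lower and 2 of 2242 (0.0892%) higher, and with 1000 bp and 2-fold 20 (0.890%) were lower and 25 (1.12%) higher. The minimum and fold were chosen with these genes in view. With equal list length 5 genes were higher at 2000 bp and 2-fold. Leaving out 1 library at a time gave 9 to 24 genes lower and 3 to 22 higher at that setting, the most without KD 2 and without KD 1.

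The other genes lower at 1000 bp and 4-fold were Galk2, Fry, Rpa1, Grk6 and Dbn1. Dbn1, which encodes the actin-binding protein drebrin, had 1178 and 1392 bp in the controls and 0 bp in both KD libraries. With the stricter threshold (a −log10 q of at least 5) control 1 was at 0 bp as well, so the groups were no longer apart. Its neighbour Grk6, a G protein-coupled receptor kinase gene on the same stretch of chromosome 13, had 1209 and 1009 bp against 228 and 202 bp, and its promoter was stable. Rpa1, the large subunit of the single-strand DNA-binding protein of replication, had 1824 and 1854 bp against 381 and 381 bp with a stable promoter, and the 5′ end of Smyd4 lies within or next to it. Fry, a large gene of cell shape and division, had 2538 and 1543 bp against 68 and 0 bp.

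The genes higher in KD were Wdr43, which encodes a factor of ribosome biogenesis, and Wdr38. Wdr43 (chromosome 17, 71616178 to 71659031, plus strand) had 179 and 197 bp in controls, against 1842 and 1711 bp under knockdown, where the stricter threshold left 981 and 978 bp. Its promoter peak was stable, with 577 and 587 bp in controls, against 1435 and 1083 bp under knockdown, and a KD-only region lay 41.2 kb inside the gene. Frmd4a had 4496 and 6740 bp in controls, against 10551 and 13064 bp under knockdown, below 2-fold for the closest pair. Cbfa2t3, which encodes the erythroid corepressor ETO2, had the opposite order, 16813 and 18837 bp against 9604 and 11377 bp, with a stable promoter. Folds were low, from 1.72 to 2.28 in the controls at the control-only regions of Cbfa2t3. At the KD-only regions of Frmd4a they were 1.82 to 2.61 in the KD libraries. Ser2P covered 17878 and 11607 bp of Cbfa2t3 in controls, against 16048 and 15171 bp under knockdown, which overlapped. For Frmd4a it was 3844 and 1670 bp against 9824 and 7894 bp, which did not.

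**Figure D3:**
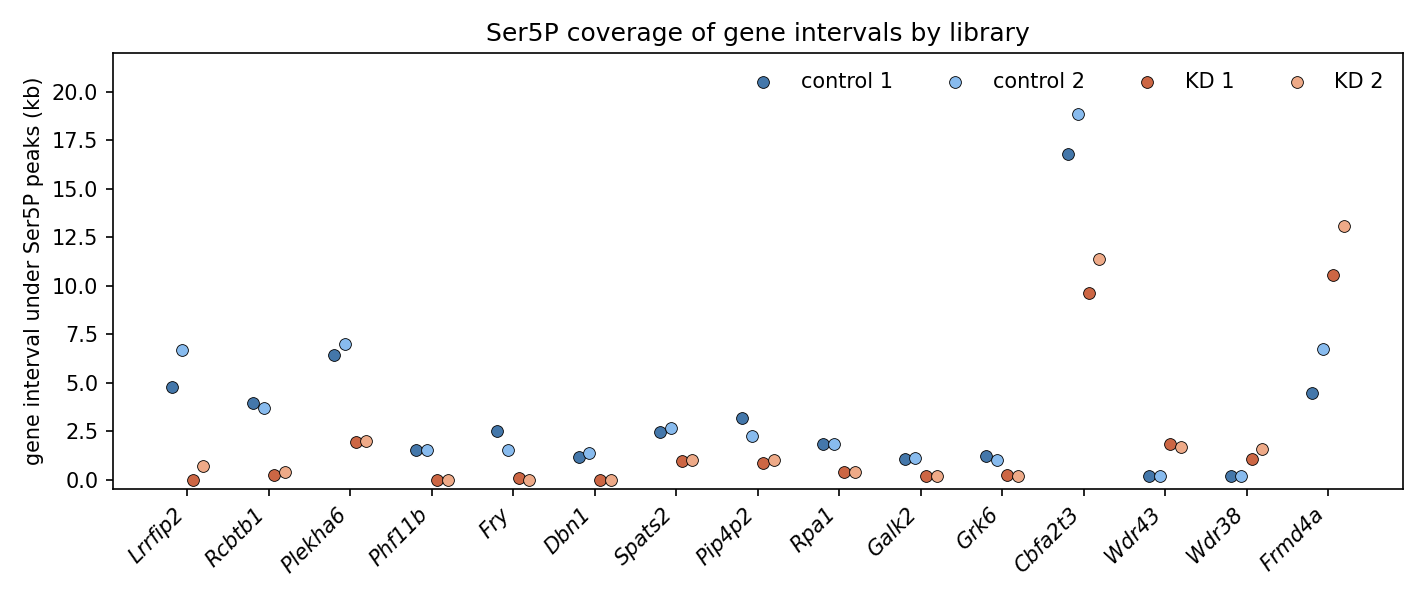
Length of each gene interval under Ser5P peaks, in kb, for the 4 libraries; each point is 1 library. Lrrfip2, Rcbtb1 and Plekha6 stand at 3.69 to 6.98 kb in the controls and at most 2.0 kb in the KD libraries, Wdr43, Wdr38 and Frmd4a run the other way.

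In limma on log2 of covered bp plus 200 over 6831 genes, none passed an adjusted p of 0.05, with 288 higher and 259 lower at an unadjusted p under 0.05 (4.22 and 3.79%). Wdr43 (log2 difference 2.35 ± 0.14 SE, adjusted p = 0.428) and Rcbtb1 (-2.95 ± 0.18 SE, adjusted p = 0.428) had the smallest p-values, and Rpa1 and Plekha6 (-1.67 ± 0.12 SE) had the same adjusted p. Lrrfip2 (-3.78 ± 0.83 SE) ranked only 141, Cbfa2t3 (-0.756 ± 0.118 SE) 42 and Frmd4a (1.06 ± 0.25 SE) 177, each with an adjusted p of 0.554. Over the 6 alternatives of this fit the smallest adjusted p of any gene lay between 0.149 and 0.685. On simulated data 47.5% of genes with a log2 difference of 2 were found.

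At the promoters of 21535 genes, Ser5P was control-only for 96 genes (0.446%), KD-only for 88 (0.409%), stable for 8111 (37.7%) and absent from all libraries for 11736 (54.5%). Of the control-only promoters 85 had at least 200 bp covered in both controls, and of the KD-only promoters 72 did so in both KD libraries. The identity of these genes depended on the peak threshold. With a −log10 q of at least 5, 34 of the 96 and 30 of the 88 kept their call, while with equal list length 75 and 74 did, and after thinning 95 and 72. When 1 library was left out, 210 to 288 promoters were control-only and 180 to 288 KD-only.

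Among the control-only promoters ranking highest by fold were Cyp2r1, which encodes a vitamin D 25-hydroxylase, and Rassf4, a Ras association domain gene. Ser5P covered 681 and 535 bp of the Cyp2r1 promoter window in the controls and none in the KD libraries. Ser2P followed it, over 746 and 729 bp in the controls and 0 bp in both KD libraries. Rassf4 showed the same pattern, with Ser5P over 669 and 991 bp and Ser2P over 612 and 678 bp in the controls and neither mark in the KD libraries. Nedd9, a scaffold of focal adhesions, had both marks in the controls only, with Ser5P over 490 and 296 bp and Ser2P over 267 and 267 bp in the controls.

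The marks did not move together at every such promoter. Snx16, a sorting nexin gene, and Rnf169, a ubiquitin ligase gene of the DNA damage response, had Ser5P in the controls only and Ser2P in all 4 libraries. Cyp4b1, a cytochrome P450 gene, had Ser5P over 304 and 325 bp in the controls and no Ser2P in any library. At Amot, Spata20 and Rnf169 the summits lay 726 to 866 bp from the outer 5′ end, so those peaks sat at the edge of the window.

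KD-only promoters were led by Pxn, which encodes paxillin of focal adhesions, but its summit lay at -2007 bp from the 5′ end in both KD libraries and only the edge of the peak, 329 and 275 bp, entered the window. Next came Apba1, an adaptor of the amyloid precursor protein, with 343 and 320 bp, and Med9, a subunit of the middle module of Mediator, with 428 and 699 bp. Med9 also had Ser2P over 294 and 0 bp in controls, against 1000 and 410 bp under knockdown. The Ser2P bp given here are not corrected for the depth of the Ser2P libraries. Zdhhc17, a palmitoyltransferase gene, had Ser5P over 649 and 374 bp in the KD libraries, and Ser2P there was present in all 4 libraries, at 422 and 286 bp against 605 and 675 bp. Zmat3, a p53 target encoding a zinc finger splicing regulator, had 467 and 571 bp, and lost its call after thinning. The zinc finger genes Zfp449, Zfp493, Zscan22 and Zfp850 were also among the 12 leading KD-only genes, and Zfp493 lost its call with the stricter threshold. The share of zinc finger genes among all genes was not counted here, so nothing is drawn from their number.

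The promoters with the highest folds in all 4 libraries varied little. At Pnp, purine nucleoside phosphorylase, the peak covered 620 and 622 bp in controls, against 584 and 641 bp under knockdown, and its summit lay 207, 207, 207 and 277 bp inside the gene. Kdm4a, a histone demethylase gene, had 680 and 664 bp against 637 and 660 bp. Immt, a gene of the mitochondrial inner membrane, had 732 and 803 bp against 864 and 804 bp. H4c17, Srp54a and LOC115488029 ranked with them, but near-identical copies exist for histone and Srp54 genes, and how reads with several matches were treated is not given in the sources used here.

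Across the 8111 stable promoters, the KD libraries had more Ser5P coverage inside the gene than the controls, and their median summit lay further in. Mean coverage downstream of the 5′ end was 413 and 425 bp in controls, against 448 and 471 bp under knockdown, while upstream it was 345 and 361 bp against 355 and 377 bp. The median summit lay 2 bp inside the gene in both controls and 21 and 22 bp inside in the KD libraries. Summits over 1000 bp from the 5′ end were left out, which left 7800 to 7832 promoters per library. The spread was wide beside the shift, with quartiles of -119 to 142 and -123 to 148 bp in controls. Under knockdown they were -112 to 161 and -123 to 173 bp. The groups did not overlap for downstream coverage or for the summit (exact permutation p = 0.3333 each, the smallest possible), and did overlap for upstream coverage. The shift of the summit, 19.5 bp, was 19.5 to 20 bp under equal list length, thinning and the stricter threshold. Among stable promoter regions, 2037 (27.9%) were wider in both KD libraries than in both controls and 800 (10.97%) narrower; in stable gene body regions these were 833 (19.6%) and 770 (18.1%), and in stable distal regions 512 (18.1%) and 465 (16.5%).

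Depth moved with these widths. Median peak width was smallest in control 1, the shallowest library, and largest in KD 2, the deepest, in all 3 classes. At promoters it was 675 and 692 bp in controls, against 728 and 760 bp under knockdown. In gene bodies it was 413, 423, 439 and 448 bp, and at distal sites 419, 431, 438 and 453 bp, in the same order of libraries (exact permutation p = 0.3333 for each class, adjusted 0.750). With lists of equal length the gene body and distal differences were 4 and 2 bp, with groups that overlapped (exact permutation p = 1), while the promoter difference was 53.5 bp beside 60.5 bp. The part of depth in the widths was not tested. Control 2 and KD 1 had nearly the same depth, 0.642 and 0.649, and their promoter peaks had median widths of 692 and 728 bp and median summits of 2 and 21 bp. This pair is a single library of each line, so no conclusion is drawn from it. The part of depth in the summit shift was not tested either.

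**Figure D4:**
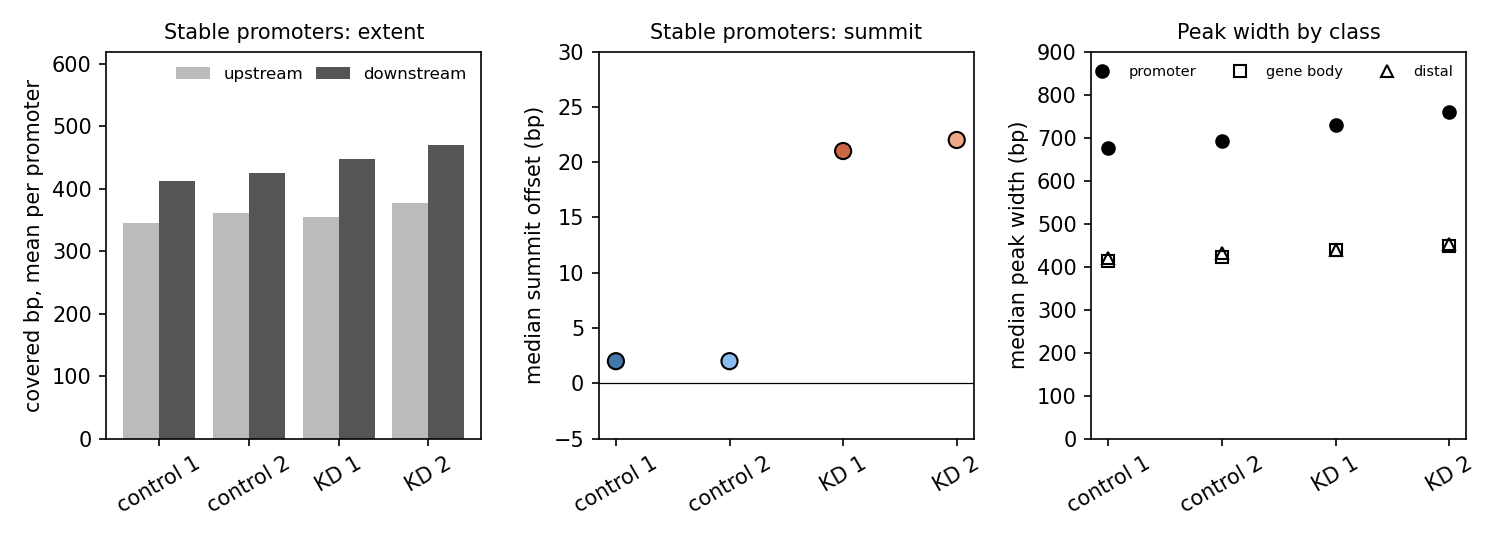
Left, mean bp covered upstream and downstream of the 5′ end at 8111 stable promoters. Middle, median position of the summit relative to the 5′ end, positive inside the gene; right, median peak width by class. Each bar or point is 1 library without an error bar. Summits sit at 2 bp in both controls and at 21 and 22 bp in the KD libraries, and both KD widths lie above both control widths in each class, which for gene bodies and distal sites ended with lists of equal length.

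Myb was among the stable promoters by this window, but the peaks of the controls and of the KD libraries did not overlap each other. In both controls Ser5P lay upstream of the gene, within chr10:21161226-21161702, and covered 334 and 432 bp there, with summits 590 and 374 bp before the 5′ end. In both KD libraries it lay over the start itself, within chr10:21160687-21161025, and covered 339 and 280 bp, with summits 49 and 10 bp inside the gene. A gap of 200 bp separates these regions, and the 120 bases printed above start within the gap and end, in capitals, inside the KD region, without reaching the control region. KD 2 had a further peak about 1.01 kb inside the gene, on chromosome 10 from 21159810 to 21160148.

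Such an exchange was rare. Of the 8111 stable promoters 56 (0.690%) held no single region common to all 4 libraries, and 4 (0.0493%) held a control-only and a KD-only region side by side: Myb, the divergent pair Pcmt1 and Lats1, which share the same regions, and Cep43. This pattern was looked for after the Myb values had been seen. The KD-only region at Myb was present in both KD libraries and absent from both controls after thinning, with equal list length and with the stricter threshold. The control-only region kept its call with equal list length and thinning, and with the stricter threshold 1 control kept it. The peaks were of modest strength, with folds of 3.98 and 4.39 in controls, against 5.89 and 4.61 under knockdown. Ser2P covered 366 and 215 bp of the Myb promoter window in controls, against 1081 and 1005 bp under knockdown. These bp are not corrected for the depth of the Ser2P libraries. Over all stable Ser5P regions Ser2P was present in 95.2 and 85.6% in controls, against 96.6 and 95.1% under knockdown. That difference of 5.47 percentage points was -1.65 after thinning. Over the whole Myb gene the groups overlapped for both marks. Ser2P covered 1848 and 0 bp of it in controls, against 908 and 733 bp under knockdown, and Ser5P 582 and 998 bp against 988 and 1111 bp.

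Upstream of Myb no distal region was called in either direction. The site at 81.1 kb, where Myrlin is made, had 513 and 237 bp in the controls, 275 bp in the first KD library and none in KD 2. The sites at 25.9, 91.2 and 108 kb lacked a peak in KD 1 alone, and those at 35.5 and 60.5 kb were stable. Inside the gene, a region 34.0 kb from the 5′ end was stable, and the other 3 gene body regions were each in 1 library.

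**Figure D5:**
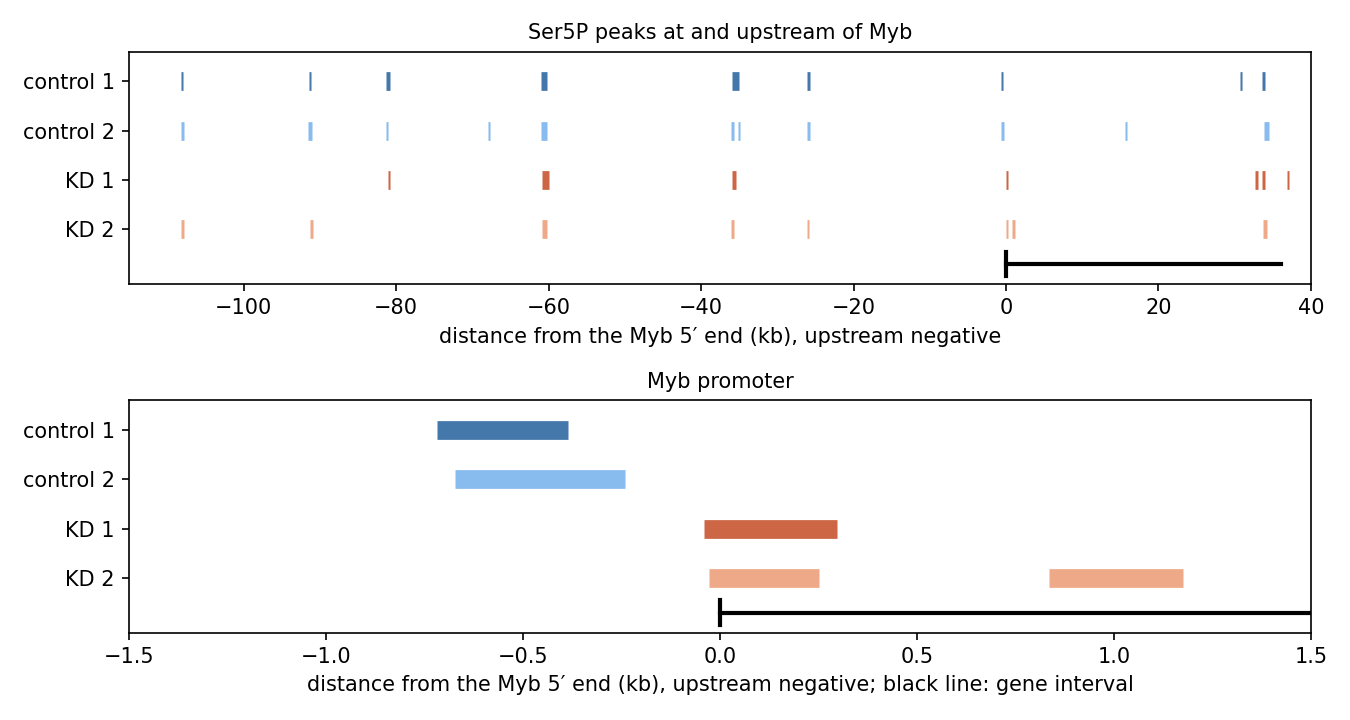
Ser5P peaks of each library by distance from the Myb 5′ end in kb, upstream negative, with the gene interval as a black line and the 5′ end as a tick. Above, the locus to 115 kb upstream; below, the promoter. The control peaks lie before the 5′ end and the KD peaks over it, with a gap of 200 bp between them.

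Among all genes 0.446 and 0.409% of promoters were control-only and KD-only, so a list of this size would hold few or no called members whatever its genes, and the counts that follow say nothing particular to a list. Of 18 erythroid transcription factor genes 12 had a stable promoter, 0 were control-only or KD-only, and Gfi1b lacked a peak in KD 2 alone. Tal1 had 913 and 688 bp in controls, against 888 and 917 bp under knockdown, and Klf1 1580 and 1124 bp against 1702 and 1503 bp, so both overlapped between groups. Over the whole gene intervals of this list, Ser5P summed to 53535 and 55717 bp in controls, against 43352 and 49476 bp under knockdown, of which Cbfa2t3 contributed the 16813 and 18837 bp against 9604 and 11377 bp given above. Without Cbfa2t3 the sums were 36722 and 36880 bp against 33748 and 38099 bp, which overlapped, so the separation of the groups rested on that gene.

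Of 18 genes of haem synthesis and iron 13 were stable and 0 called, Uros lacking a peak in control 1 alone. Of 21 globin and red-cell membrane genes 9 were stable. Epor had 1109 and 1210 bp in controls, against 479 and 845 bp under knockdown. Its summits lay 1032 or 1033 bp inside the gene in all 4 libraries, just outside the window. Over the whole Epor gene Ser5P covered 1453 and 1808 bp against 1141 and 1710 bp, so the groups overlapped. The adult globin gene Hbb-bs was stable, with 456 and 454 bp against 462 and 517 bp; its copies and those of the alpha globin genes are near identical, so their peaks are uncertain.

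Among 15 genes of the MLL1 complex and of related complexes (such as Setd1a, Cxxc1 and Kat8, which belong to others) 12 were stable and 0 called. Kmt2a, which encodes MLL1, had 914 and 909 bp in controls, against 780 and 892 bp under knockdown, and Men1, which encodes menin, had 1099 and 990 bp against 1071 and 1173 bp. Of 28 genes of polymerase II initiation, pausing and elongation 25 were stable and 0 called. Cdk7, the Ser5 kinase, had 646 and 565 bp against 702 and 721 bp, and Cdk9 had 370 and 687 bp against 802 and 1049 bp. Hexim1, an inhibitor of Cdk9, had 1081 and 1291 bp against 1384 and 1856 bp. More bp were covered in both KD libraries than in both controls at 12 of the 25 stable promoters of this list, these 3 among them, and fewer at 1. Over all stable promoters these shares were 27.9 and 10.7%. The pattern was not particular to this list. Of 25 stable Mediator promoters 11 had more and 1 fewer, and of 39 for cell cycle and replication 13 had more and 5 fewer. Of the 12 stable promoters of erythroid transcription factors 1 had more and 1 fewer, as for the MLL1 complex.

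Of 30 Mediator genes 25 were stable and Med9 was KD-only. Of 44 cell cycle and replication genes 39 were stable and 1 was KD-only, Cdk6, a kinase of the G1 phase, with 759 and 475 bp in the KD libraries at folds of 3.22 and 4.29; it lost its call with the stricter threshold. Of 32 respiratory chain genes 26 were stable and Ndufa9, of complex I, was control-only with 277 and 347 bp, a call also lost with the stricter threshold. Of 40 ribosomal protein genes 37 were stable, and of 38 immediate-early and stress genes 27, with 0 called in either list.

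Ser2P, measured in other libraries of the same lines, was set beside the Ser5P calls. At stable Ser5P regions Ser2P was present in 95.2 and 85.6% of regions in controls, against 96.6 and 95.1% under knockdown. At KD-only Ser5P regions it was present in 46.0 and 22.7% in controls, against 62.8 and 57.2% under knockdown, a difference of 25.6 percentage points (exact permutation p = 0.3333, the smallest possible). With equal list length of the Ser2P libraries this was 16.1 points and after thinning 8.03 points. At control-only Ser5P regions Ser2P was present in 61.0 and 37.9% in controls, against 45.02 and 40.01% under knockdown, so the groups overlapped, with a difference of -6.90 points that became -15.3 with equal list length and -19.4 after thinning.

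Ser2P was itself control-only at 129 (8.39%) of the control-only Ser5P regions and KD-only at 63 (4.10%) of them. At control-only promoter regions, 7 were control-only and 9 KD-only for Ser2P. Of the KD-only Ser5P regions, 104 (12.7%) were KD-only and 3 (0.365%) control-only for Ser2P. Of the stable ones 0.285% were control-only and 1.496% KD-only, but 81.9% had Ser2P in all 4 libraries, which leaves little room for either call. Most regions that were called for Ser5P were therefore not called for Ser2P. No Ser2P peak was present in any library at 19.4% of control-only and 19.0% of KD-only Ser5P regions, against 0.779% of stable regions. KD-only promoter regions had Ser2P in 80.5 and 70.8% of cases in the KD libraries and 61.9 and 31.9% in the controls, and control-only promoter regions in 59.1 and 32.3% in controls, against 59.8 and 45.7% under knockdown.

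Called regions were spread over all chromosomes. The control-only share ranged from 3.37% on chromosome 10, which holds Myb, to 5.45% on chromosome 15. Among 151 bins of 10 Mb with at least 100 regions, the highest control-only share was 13 of 119 regions (10.9%), on chromosome 3 between 50 and 60 Mb.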

How the data were processed

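CUT&Tag libraries of MEL cells were used as MACS2 peak lists called per library. Per the submitters' processing notes, MACS2 2.2.7.1 was used with Bowtie2 2.3.5, Picard 2.21.4, cutadapt 2.7, deepTools 3.3.1 and SAMtools 1.9 on GRCm38/mm10; parameters and a control library for calling peaks are not stated in the sources used here. Each deposited list gives the authors' fold over local background as a ratio, −log10 p-values, −log10 q-values, a display score and the summit offset. Folds rank or describe peaks within a list. Recovered pileups (tolerance 0.001 on −log10 p) gave the relative depth as the most frequent background value.

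Genes came from the RefSeq table of GRCm38.p6, with strand from its promoter table (17492 genes) or, by symbol or synonym, from GENCODE vM1 (4043 genes). The 352 genes without a strand were left out. The outer 5′ end of each gene interval was used, so starts inside a gene are missed.

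Library values were compared by two-sided exact permutation tests, and covered shares and bp with limma 3.58.1 in R 4.3.3, on both groups and with no covariate. The scripts were tested on simulated data. Named genes were the 12 called promoters per direction and 6 stable promoters ranking highest by their smallest fold, called list members, and Myb; some of these are not reported here. The members and the 14 gene lists were chosen with earlier results of these data known. As alternatives, lists were cut at a −log10 q of 5, set to equal length or thinned, each library was left out, windows and overlaps were changed, the filter was dropped, and limma was run with the replicate number as a block. Ratios, centring, whole-gene sums, summit positions, the erythroid sum without Cbfa2t3 and the Myb regions were added after seeing the data.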

Additional observations from a re-analysis of the deposited data

How the results depend on the processing

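The stable counts, the promoter, gene body and distal widths and the summit shift kept their direction under every alternative run for them, but with equal list length the gene body and distal width differences went from 25.5 and 20.5 bp to 4 and 2 bp and the groups overlapped. Leaving out 1 library lets a single library make a call, and gave 2420 to 5615 control-only and 1534 to 4907 KD-only regions, and 210 to 288 control-only and 180 to 288 KD-only promoters. The ratios of control-only to KD-only regions then ranged from 0.614 to 1.27 at promoters, 0.467 to 4.64 in gene bodies and 0.509 to 3.56 at distal sites. Limma without 1 library called 0 to 1537 regions lower and 0 to 3 higher. Genes at 2000 bp and 2-fold were 9 to 24 lower and 3 to 22 higher, and at 1000 bp and 4-fold 11 to 28 lower and 8 to 23 higher. With a −log10 q of at least 5 there were 505 KD-only regions, ratios of 0.793 at promoters and 2.71 at distal sites, 1.65% KD-only promoter regions, 7.42% control-only and 33.4% stable gene body regions, and 6.91% control-only and 33.3% stable distal regions. Covered sequence, KD minus control, turned from 0.109 to -0.0787 Mb, and 9 genes were lower at 2000 bp and 2-fold and 5 higher at 1000 bp and 4-fold. With equal list length the ratios were 0.679 at promoters and 1.41 in gene bodies, the distal share of summits turned from -0.219 to 0.123 percentage points, and 5 genes were higher at 2000 bp and 2-fold. After thinning, covered sequence differed by -0.398 Mb, marked promoters by -100 instead of 10, Ser2P at stable regions by -1.65 instead of 5.47 percentage points, and 1 gene was higher at 2000 bp and 2-fold. With at least 50% of a region covered the promoter ratio was 0.483. A 2000 bp window gave 1.63% control-only and 72.6% stable promoter regions and 23.0% stable gene body regions. The cause of these turns was not tested. With the replicate number as a block limma again called 0 regions, 0 promoters and 0 genes, with 1114 regions higher and 1682 lower at an unadjusted p under 0.05. Same-numbered libraries deviated together with a correlation of 0.0153 over regions and 0.0430 over promoters, so the numbers were not taken as pairs. Of all regions 36.8% were seen in 1 library; the part of depth in this was not tested.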
